A study of Mus musculus with 3 samples.

Results

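The genes Ddit4, Klf9, Tsc22d3, Fkbp5 and Per1, known for their induction by glucocorticoids, and Nr3c1, which encodes the glucocorticoid receptor, were followed through the cell types of mouse liver in 2 single-cell libraries. These 6 genes, of 23860 genes with a column in either count table, were picked as a group on measured values. The reason was that genes of this group were lower in the library of the high-fat, high-cholesterol (HFHC) diet. The differences between the libraries are therefore descriptions, with no test. Nr3c1 itself was 2-fold lower in 0 of the cell types where it was measured. The first 5 are called the response genes.
By the methods, the cells of the reference library came from livers of wild-type (WT) C57BL/6J mice on a normal chow diet (NCD) for 16 weeks. It was identified by elimination: its sample title reads MCD and its file header names the library APAP0h, so that 3 names disagree on what these mice received. The HFHC pool holds WT and Chi3l1-/- mice (Chil1-/- in the labels), fed the HFHC diet for 16 weeks, with no genotype for each cell, so that every value of the pool is a mixture of both genotypes. The labels speak of parenchymal cells, whereas the methods describe non-parenchymal cells (NPCs) from collagenase-perfused livers, captured with the BD Rhapsody system. Male mice were used in most of the study's experiments and its strains are listed as male. The age and number of the mice behind these libraries and the time of day at which livers were taken are not given in the sources used here. Diet, genotype, capture and library cannot be told apart.
Deposited cells numbered 30734 in the reference library, with 53720863 unique molecular identifiers (UMIs, counted molecules), and 21601 in the HFHC pool, with 71981673 UMIs. After filtering, 23346 and 19625 cells were left, with a median of 1322.5 and 1622 UMIs per cell and a median mitochondrial share of 5.95% and 1.11%. Cells above the limit of 4000 genes numbered 68 and 814. With this limit, the largest Kupffer cell cluster held 1928 and 315 cells, with medians of 5658.5 and 11250 UMIs. Without it, the largest such cluster held 1733 and 431 cells, with medians of 5323 and 17734 UMIs. Deep Kupffer cells of the pool are thus missing from the main values. Cell indexes shared by both libraries numbered 756. In 13 cell types, named from marker genes and standing for cells like that type, each library had at least 50 cells. At least 7 of the 8 to 10 markers of each type were found in 10% or more of its cells in both libraries, and 1 marker of type 2 conventional dendritic cells was at 0 in the pool. Cholangiocytes (79 and 27 cells) and basophils (73 and 18 cells) were too few to compare.

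Glucocorticoids enter the cell and bind the receptor encoded by Nr3c1, which is held ready by Hsp90 chaperones, moves to the nucleus and binds response elements near its target genes. Their secretion by the adrenal gland follows the time of day and rises with stress and fasting. In liver the hormone is known for raising gluconeogenesis in hepatocytes and for restraining inflammation in immune cells. Of the response genes, Fkbp5 encodes a co-chaperone that lowers the receptor's affinity for the hormone, and Tsc22d3 encodes GILZ, a leucine zipper protein that restrains inflammatory transcription factors. Ddit4 encodes REDD1, an inhibitor of the growth kinase complex mTORC1, Klf9 a Krüppel-like transcription factor, and Per1 a repressor of the circadian clock. Each of these genes also answers to other signals, such as hypoxia and amino acid stress for Ddit4 and cAMP and the clock for Per1.

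By the GENCODE M21 annotation of the build GRCm38, Fkbp5 lies on chromosome 17 (28399094 to 28517527), Tsc22d3 on X (140539528 to 140600659), Ddit4 on 10 (59949669 to 59951834), Klf9 on 19 (23141226 to 23168134) and Per1 on 11 (69095217 to 69109960). The RefSeq promoter table (GRCm38.p6) held 8 start sites of the 5 response genes and none of Nr3c1. Sequences before 1 start of each gene are shown, because the genes were grouped by a shared inducer. Of the genes with several starts, the start with a match is shown: Tsc22d3 starts 1 and 3 and Per1 start 2 had no match. Bases of annotated exons are left out. Capitals mark a match to the letters AGAACA, the half-site of the receptor (read as TGTTCT on the other strand), or to CACGTG, the E-box of the clock proteins.
Tsc22d3 start 2, chrX:140600660-140600772, minus strand: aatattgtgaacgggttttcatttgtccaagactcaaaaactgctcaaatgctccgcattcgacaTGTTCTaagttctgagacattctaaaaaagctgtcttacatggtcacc
Fkbp5 start 1, chr17:28486150-28486399, minus strand: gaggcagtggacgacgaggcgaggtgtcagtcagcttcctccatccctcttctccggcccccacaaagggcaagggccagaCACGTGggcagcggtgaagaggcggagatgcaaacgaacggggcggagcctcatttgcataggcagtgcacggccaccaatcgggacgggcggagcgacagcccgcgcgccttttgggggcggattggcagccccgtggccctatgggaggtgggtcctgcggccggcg
Per1 start 1, chr11:69098699-69098947, plus strand: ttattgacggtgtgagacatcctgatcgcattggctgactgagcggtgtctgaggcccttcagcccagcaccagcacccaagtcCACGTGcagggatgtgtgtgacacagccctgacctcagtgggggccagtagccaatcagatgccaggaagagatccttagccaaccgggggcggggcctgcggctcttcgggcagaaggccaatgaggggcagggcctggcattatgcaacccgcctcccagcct
Ddit4 start 1, chr10:59951835-59952020, minus strand: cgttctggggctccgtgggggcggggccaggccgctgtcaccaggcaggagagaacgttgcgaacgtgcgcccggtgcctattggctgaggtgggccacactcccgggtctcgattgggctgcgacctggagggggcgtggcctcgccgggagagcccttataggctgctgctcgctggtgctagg
Klf9 start 1, chr19:23140976-23141225, plus strand: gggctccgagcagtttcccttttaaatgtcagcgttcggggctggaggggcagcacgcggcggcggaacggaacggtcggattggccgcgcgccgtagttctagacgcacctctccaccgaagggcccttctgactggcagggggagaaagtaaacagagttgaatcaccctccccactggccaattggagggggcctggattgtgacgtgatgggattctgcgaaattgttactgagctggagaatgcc
The Tsc22d3, Ddit4 and Klf9 stretches lie just before the annotated gene, whereas those of Fkbp5 and Per1 lie within the span of longer transcripts, outside exons. The half-site before Tsc22d3 began 185 bases before the start, the E-box of Fkbp5 169 bases and that of Per1 166 bases. Over 250 bases before the start and both strands, 16.1% of 32851 promoters held the half-site and 6.02% the E-box, so that such a match is common. The full response element (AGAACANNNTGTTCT, which holds the half-site on each strand) stood in 3 of the 32851 promoters and before none of the 8 starts. The cAMP element, held by 1.55% of promoters, was also not among the letters of these windows. A match is a description of letters and not a bound site, and its lack says nothing about binding elsewhere.

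To give a level, the UMIs of a gene were added up within a cell type of 1 library and scaled to all UMIs of that type, in the usual unit CPM. A ratio is the log2 of the pool's level over that of the reference library with 1 UMI added, and a gene counts as measured in a type when the libraries together held at least 100 of its UMIs. All intervals are exact 95% intervals for counting error only; molecules of 1 library are no replicates of a diet. Of the 78 pairs of a member and a cell type, 57 were measured. A member could pass this limit through the library in which it was high, so that counts over measured pairs are descriptions.
In Kupffer cells (KCs), the resident macrophages of the liver, all 6 members were measured and 5 were at least 2-fold lower in the pool, while 3.11% of the 9222 genes measured there were. Of the monocyte lineage, monocyte-derived macrophages (MoMFs) had 2 members measured and 1 lower (4.04% of genes), classical monocytes 5 and 3 (2.66%), and patrolling monocytes 1 and 1 (2.44%). Neutrophils had 4 members measured and 2 lower, with 4.55% of genes. Among dendritic cells, type 1 conventional dendritic cells (cDC1s) had 3 members measured and 1 lower (2.4% of genes), type 2 (cDC2s) 4 and 3 (2.73%), and plasmacytoid dendritic cells (pDCs) 5 and 3 (2.21%). B cells had 4 measured and 2 lower (2.15%), T cells 6 and 2 (3.08%), and the class of natural killer cells and type 1 innate lymphoid cells (NK cells) 5 and 2 (2.33%). Endothelial cells had 6 measured and 5 lower (4.52%), and hepatocytes 6 and 3 (7.92%). No measured member was at least 2-fold higher in any of the 13 types. As the members were picked on this contrast, nothing is read from these counts against the shares of all genes.

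**Figure D1:**
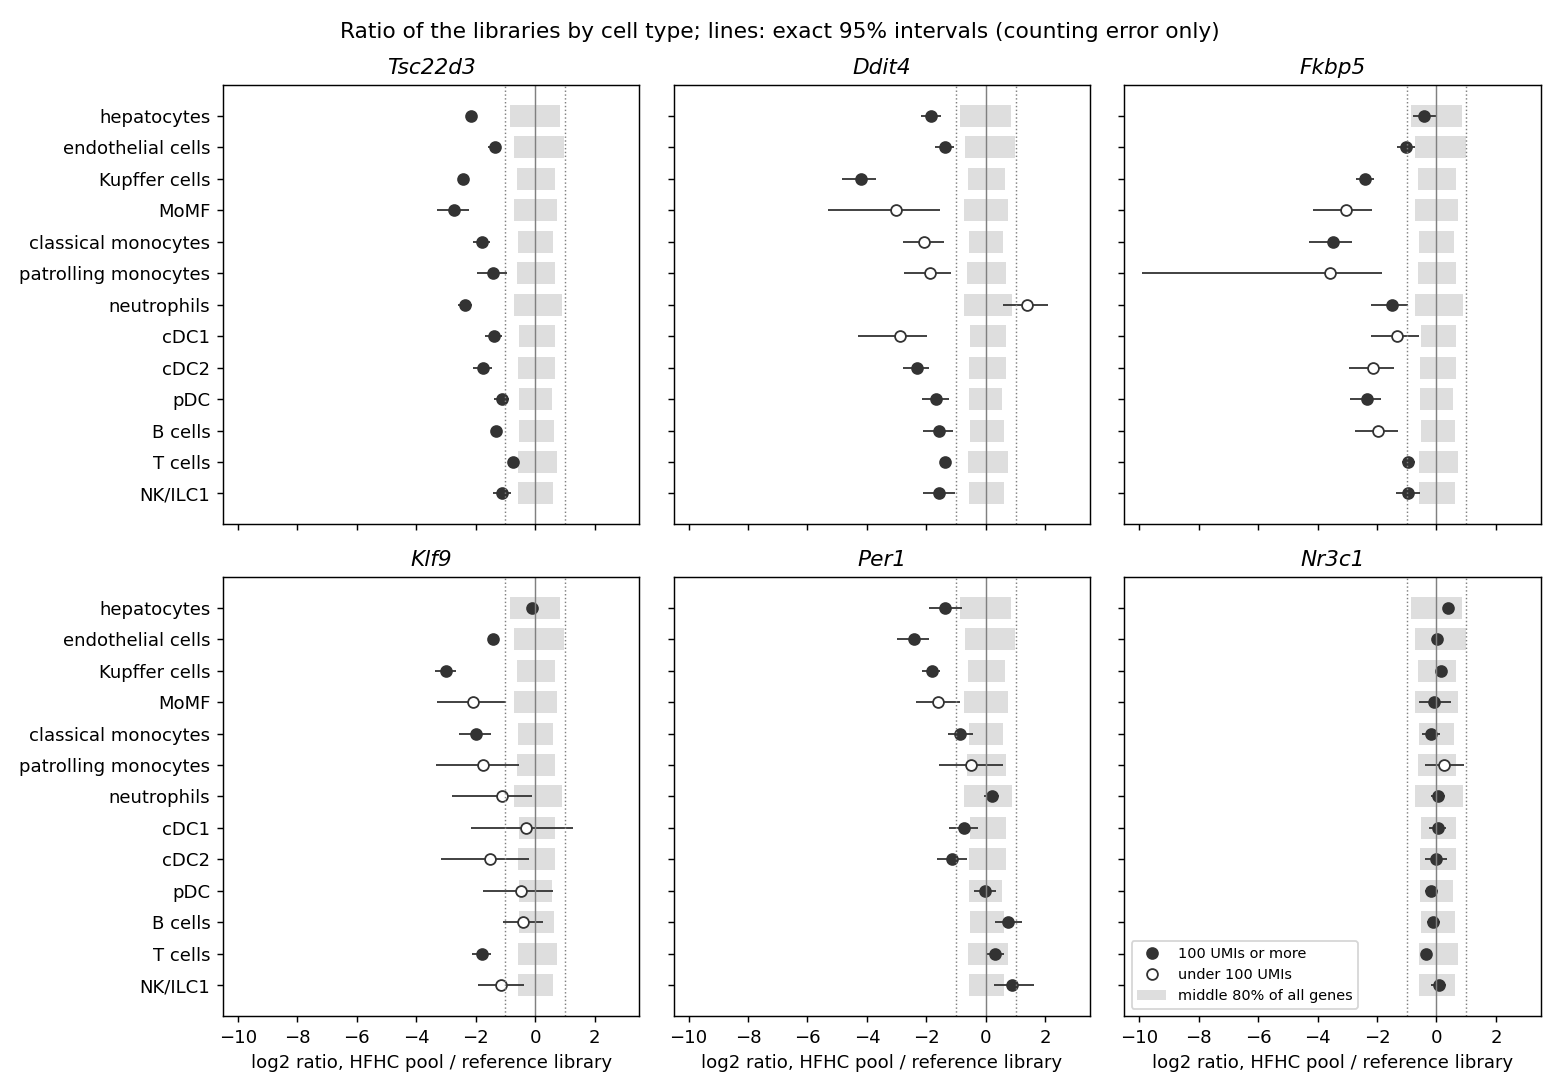
Log2 ratio of levels, pool over reference library, for each gene (panels) and cell type (rows). Filled points had 100 UMIs or more, open points fewer, lines are exact 95% intervals for counting error, grey bars span the middle 80% of all genes and dotted lines mark a 2-fold difference. Tsc22d3 lies left of 0 in the 13 types, Per1 on both sides, and Nr3c1 between -0.37 and 0.39 in the 12 types where it was measured.

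Nr3c1, the receptor itself, had ratios between -0.37 and 0.39 in the 12 types where it was measured, and was 2-fold lower or higher in none of them. In T cells its level was 250 CPM in the reference library and 194 CPM in the pool, the lowest ratio among measured types (-0.37, interval -0.47 to -0.26). In hepatocytes it was 86.2 and 113 CPM, the highest ratio (0.39, 0.22 to 0.57). The remaining ratios of measured types lay between these, and the median over the 12 measured types was -0.0039. KCs had 161 and 177 CPM, and neutrophils 248 and 258 CPM. NK cells had 193 and 203 CPM, with an interval of the ratio from -0.17 to 0.32.
Among dendritic cells, the level of Nr3c1 was 116 and 120 CPM in cDC1s, 118 and 116 CPM in cDC2s and 174 and 154 CPM in pDCs. Endothelial cells had 168 and 170 CPM, B cells 170 and 158 CPM, MoMFs 135 and 129 CPM and classical monocytes 103 and 90.7 CPM. Patrolling monocytes, with 33 and 53 UMIs, were under the limit and had 133 and 160 CPM. The ratio's interval lay off 0 in 3 of the 12 types, namely T cells, hepatocytes and KCs (0.014 to 0.26).
In the order of levels, T cells, neutrophils and NK cells led in the reference library, and neutrophils, NK cells and T cells led in the pool. Hepatocytes were last in the reference library, and classical monocytes were last in the pool after hepatocytes. Most neighbours in this order did not differ beyond their counting intervals, which were apart for 1 of 12 neighbouring pairs in the reference library and 2 of 12 in the pool.

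**Figure D2:**
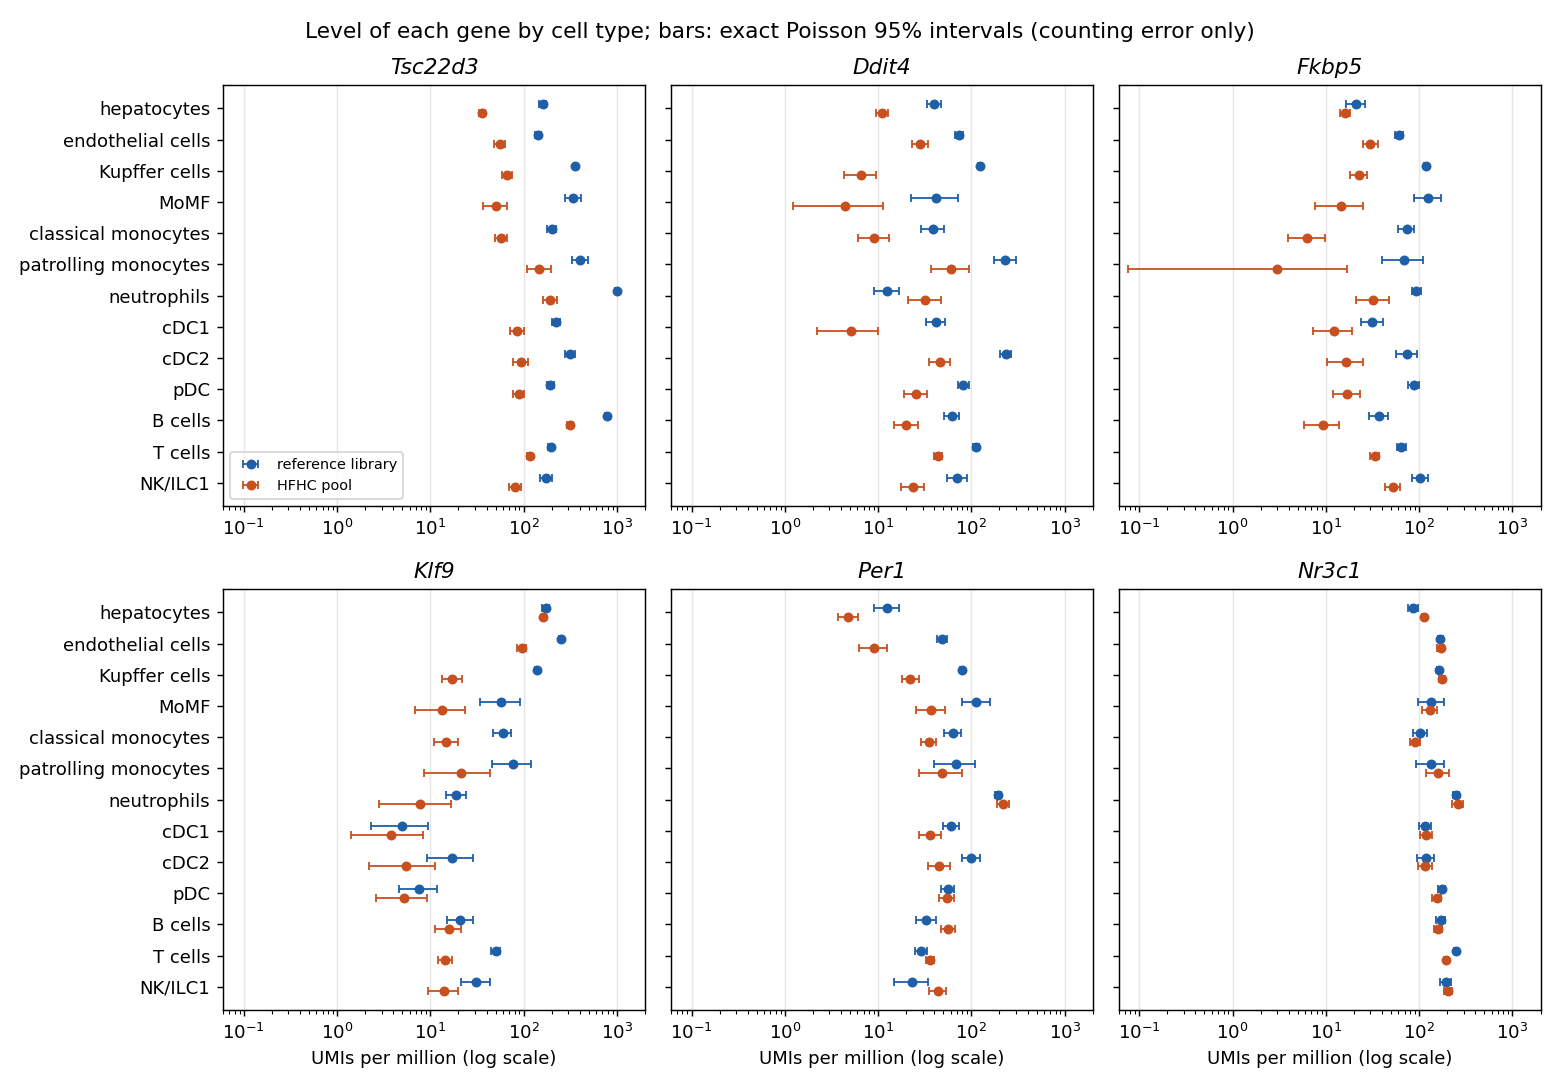
Level of each gene in CPM on a log axis, for 13 cell types (rows) in the reference library (blue) and the HFHC pool (orange), with exact Poisson 95% intervals for counting error. Tsc22d3 in neutrophils stands at 993 and 193 CPM, whereas Nr3c1 in neutrophils stands at 248 and 258 CPM.

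Fkbp5, the co-chaperone that feeds back on the receptor, was measured in 8 types and was lower in the pool in each of them, by 2-fold or more in 5. Classical monocytes had 73.3 CPM in the reference library and 6.35 CPM in the pool, a ratio of -3.48 (interval -4.28 to -2.84). Their clusters, both under 100 UMIs of Fkbp5, had ratios of -4.66 (-6.57 to -3.62) and -2.16 (-3.18 to -1.25). The first held most such cells of the reference library and the second most of the pool. KCs had 119 and 22.4 CPM (-2.39), and pDCs 87.4 and 17.0 CPM (-2.33). These 3 types therefore differed by 5-fold or more. Neutrophils had 93.6 and 32.1 CPM (-1.49, -2.19 to -0.95) and endothelial cells 60.8 and 29.9 CPM (-1.01). The Fkbp5 log2 ratio in endothelial cells lay at the 2-fold limit and passed it no longer under 5 alternatives, with -0.83 when RNA of other cells was taken off and -0.47 with cells thinned to 1000 UMIs.
T cells, NK cells and hepatocytes were measured for Fkbp5 but short of 2-fold. T cells had 64.6 and 33.4 CPM (-0.95) and NK cells 102 and 51.9 CPM (-0.97, -1.37 to -0.57). Hepatocytes had 21.1 and 15.99 CPM, and the interval of this ratio (-0.78 to -0.0027) nearly reached 0. Of the 5 types under the limit, MoMFs had 125 and 14.5 CPM, cDC2s 74.0 and 16.5 CPM, B cells 37.2 and 9.27 CPM (-1.96, -2.75 to -1.31), and cDC1s 31.2 and 12.1 CPM. Patrolling monocytes had 17 UMIs in the reference library and 1 in the pool.

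Tsc22d3, which encodes GILZ, was the member that passed the limit in all 13 types, and its level was lower in the pool in each, by 2-fold or more in 12. Neutrophils had the highest level of the reference library, 993 CPM (interval 960 to 1027), against 193 CPM (163 to 226) in the pool, a ratio of -2.35. B cells followed with 789 and 315 CPM (-1.33, -1.45 to -1.20) and had the highest level of the pool. The counting intervals of the libraries were apart in these cells.
Macrophages had lower ratios of Tsc22d3, with 357 and 66.4 CPM in KCs (-2.42) and 338 and 50.2 CPM in MoMFs (-2.73, -3.29 to -2.23), the lowest of the 13. Classical monocytes had 200 and 57.2 CPM (-1.80) and patrolling monocytes 403 and 148 CPM (-1.43). Hepatocytes had 159 and 35.8 CPM (-2.16), and endothelial cells 142 and 55.5 CPM (-1.35). The lowest ratios of Tsc22d3 thus lay in MoMFs, KCs, neutrophils and hepatocytes, with no test between types.
Dendritic cells lay between, with Tsc22d3 at 225 and 85.2 CPM in cDC1s (-1.39), 314 and 92.6 CPM in cDC2s (-1.76) and 193 and 88.2 CPM in pDCs (-1.13). NK cells had 175 and 81.3 CPM (-1.11, -1.42 to -0.80). T cells had the smallest difference, with 196 and 117 CPM (-0.75, -0.87 to -0.63), and were the type short of 2-fold. Further calls of Tsc22d3 ended under some alternatives: the Tsc22d3 log2 ratio in plasmacytoid dendritic cells was -0.92 to -0.98 under 3 of them, and the Tsc22d3 log2 ratio in NK cells and ILC1 was -0.89 with cells thinned and -0.81 with types taken from the marker UMIs of cells. In the order of levels, neighbours' intervals were apart for 3 of 12 pairs in the reference library and 1 of 12 in the pool, so that most neighbours in the order did not differ beyond counting error.

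Ddit4, the mTORC1 inhibitor, was at least 2-fold lower in the pool in each of the 8 types where it was measured. KCs had 123 CPM in the reference library and 6.52 CPM in the pool, a ratio of -4.18 (interval -4.84 to -3.69) and 18.2-fold. The Ddit4 log2 ratio in Kupffer cells was -4.97 with no upper limit on genes per cell and -3.50 with cells thinned to 1000 UMIs, and the Ddit4 log2 ratio in T cells was -2.18 when cells were clustered without the members and lists. That clustering left unnamed a cluster led by Foxp3 and Tnfrsf4, with 600 and 1004 cells, which scored highest for T cells. Its T cells were therefore not the same cells. cDC2s had 233 and 46.3 CPM (-2.31) and hepatocytes 39.6 and 11.0 CPM (-1.85, -2.18 to -1.51). Lymphocytes had ratios from -1.59 in B cells (61.3 and 20.1 CPM) to -1.36 in T cells (113 and 43.9 CPM), with NK cells between (70.6 and 23.8 CPM). The remaining measured types were pDCs, with 81.7 and 25.5 CPM, and endothelial cells, with 73.8 and 28.1 CPM.
In neutrophils Ddit4 had the opposite direction at a low level. It was counted 43 times in the reference library and 25 times in the pool, or 12.6 and 32.1 CPM, a ratio of 1.38 (0.58 to 2.10) under the limit of 100 UMIs. Of the other types under the limit, patrolling monocytes had 230 and 60.3 CPM, classical monocytes 38.5 and 9.07 CPM, MoMFs 41.8 and 4.46 CPM, and cDC1s 41.8 and 5.09 CPM.

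Klf9, the Krüppel-like factor, was measured in 5 types and at least 2-fold lower in the pool in 4. KCs had 137 and 17.1 CPM (-2.98, interval -3.37 to -2.66), classical monocytes 59.5 and 14.8 CPM (-1.99), T cells 50.2 and 14.4 CPM (-1.80), and endothelial cells, where its level was highest in the reference library, 253 and 95.2 CPM (-1.41). Hepatocytes stood apart from these 4 types, with 173 and 162 CPM (-0.09, -0.22 to 0.04). In hepatocytes, Klf9 thus differed by less than its counting interval while Tsc22d3 and Ddit4 were lower by 4.46 and 3.60-fold.
The other types had few UMIs of Klf9. Neutrophils had 19.02 and 7.72 CPM, NK cells 31.0 and 14.02 CPM, MoMFs 57.9 and 13.4 CPM, and patrolling monocytes 76.6 and 21.1 CPM. B cells had 20.95 and 15.7 CPM, pDCs 7.57 and 5.19 CPM, and cDC1s 5.01 and 3.82 CPM, and the interval of the ratio held 0 in each. In cDC2s, with 17.0 and 5.49 CPM, it did not (-3.18 to -0.22). Klf9 stood at 173 and 162 CPM in hepatocytes, and the estimated share of hepatocyte RNA was 3.05% and 6.82% in B cells and 3.15% and 8.33% in neutrophils. In neutrophils of the pool the estimated RNA of other cells held more Klf9 than was counted. The corrected value there was set to 0 CPM, beside 11.75 CPM in the reference library, and is not a level. With RNA of other cells taken off, Klf9 had 14.6 and 4.90 CPM in B cells, 3.75 and 1.05 CPM in pDCs and 2.37 and 0.877 CPM in cDC1s. The Klf9 log2 ratio in T cells was then -2.48.

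Per1, the clock repressor, was measured in 11 types and differed in direction among them. It was at least 2-fold lower in 4: endothelial cells (48.4 and 8.95 CPM, -2.40, interval -2.98 to -1.93), KCs (79.1 and 22.2 CPM, -1.82), hepatocytes (12.4 and 4.798 CPM, -1.38) and cDC2s (99.5 and 45.5 CPM, -1.12). The Per1 log2 ratio in hepatocytes was -0.84 as the mean of the CPM of cells, short of 2-fold. In lymphocytes Per1 was higher in the pool, with 33.0 and 56.0 CPM in B cells (0.75, 0.32 to 1.22), 23.2 and 43.9 CPM in NK cells (0.88, 0.26 to 1.63) and 28.8 and 36.1 CPM in T cells (0.32, 0.05 to 0.60). Neutrophils had the highest level in both libraries, 193 and 220 CPM, with an interval of the ratio (-0.07 to 0.43) that held 0. pDCs had 55.6 and 54.7 CPM (-0.02), cDC1s 60.7 and 36.2 CPM (-0.73) and classical monocytes 63.2 and 35.1 CPM (-0.85). The classical monocyte cluster with most such cells of the reference library had 94.98 and 35.8 CPM of Per1 (-1.40, -2.00 to -0.82), and that with most of the pool 37.0 and 34.6 CPM (-0.13, -0.75 to 0.59), the latter under 100 UMIs. MoMFs (113 and 36.8 CPM) and patrolling monocytes (68.5 and 48.3 CPM) were under the limit. In neutrophils the interval of Per1 thus held 0, while Tsc22d3 was 5.12-fold lower.
No other clock gene was 2-fold lower in any type where it was measured. Of 66 measured pairs of 18 other clock genes and a cell type, 0 were at least 2-fold lower in the pool and 24 at least 2-fold higher (36.4%), beside 3.65% and 5.47% over all genes. Bhlhe40, a repressor of the clock proteins, was at least 2-fold higher in 9 of 11 types, for example 14.9 and 118 CPM in neutrophils (2.97). Nfil3, another clock-linked repressor, was higher by 2-fold in 3 of 7 types. Genes chosen after their values were seen, as they were measured in fewer types, had the highest ratios of the 15 clock genes measured in hepatocytes: Nr1d1 had 20.8 and 192 CPM (3.19), Dbp 3.65 and 17.9 CPM (2.19), Nr1d2 19.7 and 66.6 CPM (1.74) and Tef 10.9 and 32.8 CPM (1.55). The median of the 15 was 0.63, and the lowest ratios there were those of Npas2 (-0.73), Rora (-0.62) and Cry1 (-0.58). Per2, the paralogue of Per1, had 7.58 and 6.80 CPM in hepatocytes (-0.20, -0.78 to 0.51). Arntl, the activator of the clock, was measured in 4 types, with ratios from -0.56 to 0.01. Nr1d1 was also among the 10 leading genes of a hepatocyte cluster with 279 cells of the reference library and 2562 of the pool. The part of the time of day in the ratios of Per1 was not tested.

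**Figure D3:**
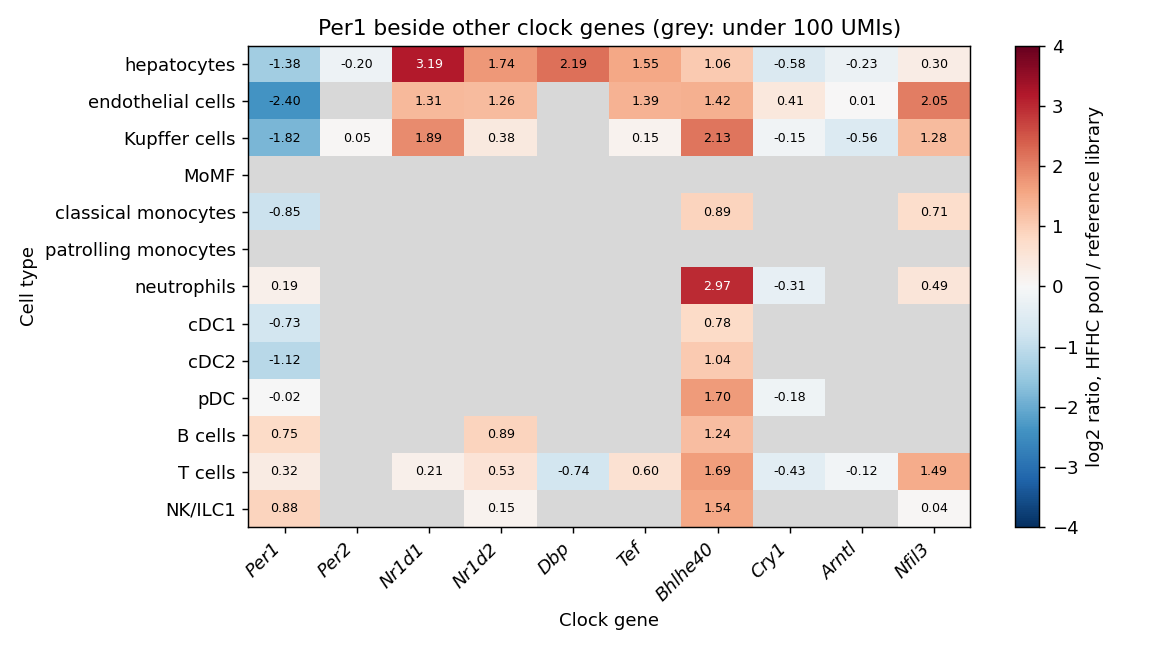
Log2 ratio of levels, pool over reference library, for Per1 and 9 other clock genes (columns) in 13 cell types (rows). Blue is lower and red higher in the pool, and grey marks pairs under 100 UMIs. In hepatocytes Per1 stands at -1.38 and Nr1d1 at 3.19.

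Other genes of the pathway were counted in lists written with earlier results of these data known. The receptor and its machinery (17 genes: the mineralocorticoid receptor, the enzymes that activate and inactivate the hormone, chaperones and cofactors) had 170 measured pairs, of which 0 were at least 2-fold lower and 3 higher. The medians of this list in the 13 types lay between -0.06 and 0.28. Hspa8, the constitutive Hsp70 chaperone, had a median of 0.71 and Hsp90aa1 of 0.49 over 13 types, and Fkbp4, the co-chaperone that works against Fkbp5, of -0.13 over 11. In hepatocytes Hsd11b1, the enzyme that regenerates the active hormone, had 128 and 64.7 CPM (-0.99, interval -1.15 to -0.82), and in endothelial cells its ratio was 0.93, values chosen after they were seen. Its median over the 6 types where it was measured was 0.01.
Of 30 other genes known to be induced by glucocorticoids, 28 of 187 measured pairs were at least 2-fold lower in the pool (15.0%) and 20 at least 2-fold higher (10.7%), whereas over all genes 3.65% of 74410 pairs were lower and 5.47% higher. Of the 28 lower pairs, Pck1 held 7, and Tat and Cebpd 3 each, with values below. Of the 20 higher pairs, Rgs2 held 5. The 5 response genes had 33 of 45 measured pairs lower (73.3%), the direction they were picked for. Hepatocytes held 11 of the 28 lower pairs, with 24 genes measured and a median of -0.84 beside 0.14 over all genes. NK cells lay on the other side, with a median of 0.91, 2 of 11 lower and 5 of 11 higher. Endothelial cells had 5 of 23 lower (median -0.39), and KCs 1 of 21 (median 0.15). The lower pairs of hepatocytes included Cxcr4 (-1.60), Rgs2 (-1.003), Cd163 (-2.77) and Mertk (-1.32), the last of which were named after their values were seen. Cd163 and Mertk were also among the leading genes of KC clusters, and Clec4f, a KC gene, was at 102 and 30.7 CPM in hepatocytes. The part of RNA of other cells in these pairs was not tested.
Among the genes measured in most types, Dusp1, a phosphatase that switches off MAP kinases, was lower in hepatocytes (90.7 and 39.7 CPM, -1.20) and higher in NK cells (80.3 and 411 CPM, 2.34). Cebpd, an acute-phase transcription factor, was at least 2-fold lower in 3 of 7 types, with 926 and 413 CPM in neutrophils (-1.16). Sgk1, a kinase induced by corticoids, was lower by 2-fold in 0 of 9 types and higher in 2. Zfp36 and Nfkbia, which restrain inflammatory messages and NF-κB, were higher by 2-fold in 3 and 2 of 13 types and lower in 0. Dusp1, Zfp36 and Nfkbia also stand on the list of tissue dissociation genes. The medians of others measured in most types were 0.72 for Rgs2, 0.65 for Anxa1, 0.33 for Bcl6, 0.27 for Cxcr4 and -0.13 for Lpin1.
Pck1, the gluconeogenic enzyme of hepatocytes, had 3332 and 838 CPM there (-1.99), and was at least 2-fold lower in 7 of 8 types. The exception was endothelial cells (134 and 172 CPM, 0.37). Its level in the other 12 types of the reference library was at most 135 CPM, beside Alb, the albumin gene of hepatocytes, at 140 to 589 CPM in them. The part of hepatocyte RNA in the Pck1 of other cells was not tested. Tat, a hormone-induced enzyme of tyrosine breakdown, had its lowest ratio in hepatocytes (-1.55) and was at least 2-fold lower in 3 of 8 types. Cdkn1a, an inhibitor of the cell cycle, had 130 and 37.9 CPM in hepatocytes (-1.78), its lowest ratio, whereas its highest was 2.11 in neutrophils and its median over 10 types 0.17. G6pc, which releases glucose and was named after its value was seen, had 120 and 31.2 CPM there (-1.94). Mt1, a metallothionein, had 172 and 163 CPM there (-0.08), its highest ratio among 9 types, and was at least 2-fold lower in 2 of them. In T cells, Zbtb16, also named after its value was seen, had 121 and 30.4 CPM (-1.99), and in hepatocytes its ratio was 0.23. Most T cells of each library lay in different clusters, and Zbtb16 was not computed within them, so that its ratio may hold a difference in make-up. Mt2, another metallothionein, and Pdk4, which restrains glucose oxidation, had ratios of 0.86 and 0.72 in hepatocytes and were likewise named after their values were seen.
Of family members of the 6 genes, 4 of 128 measured pairs were at least 2-fold lower (3.13%) and 13 higher (10.2%), beside 3.65% and 5.47% over all genes, so that the lower share was near that of all genes. All 4 lower pairs were of Klf13, which had 268 and 97.7 CPM in neutrophils (-1.44), while Klf4 was at least 2-fold higher in 7 of 11 types. Tsc22d4 had a median of -0.45 over 12 types and was at least 2-fold lower in 0 of them. The medians of Klf2 and Klf6 over 13 types were 0.21 and 0.56.

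**Figure D4:**
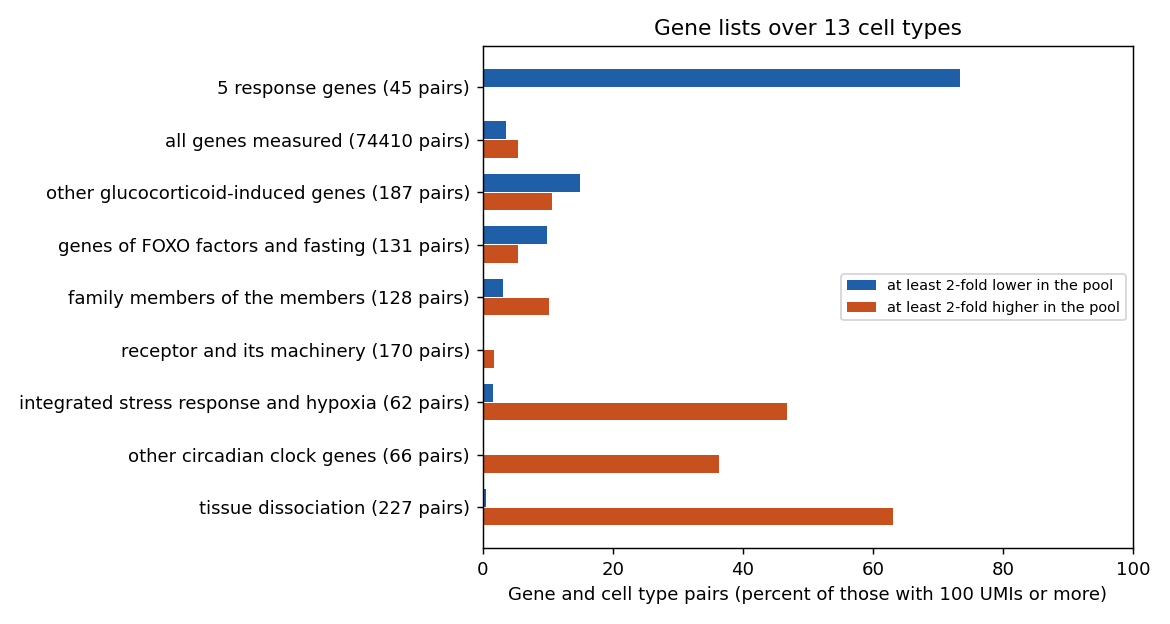
Share of measured pairs of a gene and a cell type at least 2-fold lower (blue) or higher (orange) in the HFHC pool, in percent, for each list. The 5 response genes stand at 73.3% lower, as they were picked for, and tissue dissociation genes at 63.0% higher.

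Lists for other inputs of these genes differed in direction. For genes of FOXO factors and fasting, another input to Ddit4 and Klf9, 13 of 131 pairs were at least 2-fold lower (9.92%) and 7 higher (5.34%), beside 3.65% and 5.47% over all genes, and the list's median lay below that of all genes in 9 types. In this list, Ypel3 held 6 of the lower pairs, with 2003 and 778 CPM in neutrophils (-1.36). Txnip, which restrains glucose uptake, had a median of -0.33 over 13 types and was 2-fold lower in 1. For the integrated stress response and hypoxia, which also induce Ddit4, 1 of 62 pairs was lower (1.61%) and 29 were higher (46.8%). Atf4, the transcription factor of that response, was at least 2-fold higher in 10 of 13 types, and Ddit3, which it induces, in 6 of 7. Atf3, on this list and on that of tissue dissociation, held 7 of the 29 higher pairs. The part of these inputs in the ratios of Ddit4 was not tested.
Genes known to be induced while tissue is dissociated were mostly higher in the pool, though less so in hepatocytes. There 7 of 18 were at least 2-fold higher and 1 was lower, and their summed share of UMIs was 0.193% and 0.187%. Of 20 such genes, 143 of 227 measured pairs were at least 2-fold higher and 1 was lower, and Jun and Ier2 were higher in 13 of 13 types, Fosb in 12 of 12 and Fos in 11 of 13. Their summed share of UMIs was 0.193 to 1.87% in the 13 types of the reference library and 0.187 to 3.25% in the pool, and the median ratio was lowest in hepatocytes (0.37) and highest in B cells (2.11). The part of dissociation in the ratios of the response genes was not tested. With the 20 genes taken out of each total, a setting chosen after seeing the data, 33 of 45 pairs of the response genes were at least 2-fold lower. As these genes held at most 3.25% of the UMIs of a type, this setting could hardly move a ratio. It therefore says nothing on the part of dissociation.
RNA of other cells also moved with the libraries. Outside neutrophils S100a9, a neutrophil gene, was at 52.4 to 247 CPM in the reference library and 2.54 to 109 CPM in the pool. Clec4f, a KC gene, was at 59.0 to 843 CPM outside KCs in the reference library and at 9.05 to 144 CPM in the pool. Shares were estimated as if S100a9, Clec4f and Alb came only from neutrophils, KCs and hepatocytes. Any Clec4f made by MoMFs or cDC2s themselves would thus count as KC RNA. On this assumption, neutrophil RNA made up at most 0.96% of any other type of the reference library. KC RNA made up 13.8% of its MoMFs and 6.08% of its cDC2s. Hepatocyte RNA made up 22.8% of endothelial cells of the pool, where Alb was at 2701 CPM beside 589 CPM in the reference library. With these shares taken off, which was chosen after seeing the data, 32 of 45 pairs of the response genes were at least 2-fold lower. The Tsc22d3 log2 ratio in endothelial cells was then -1.10, and the Klf9 log2 ratio in Kupffer cells was -3.74.
Cells named hepatocytes had a median of 740 UMIs in the reference library and 1155 in the pool, and Alb at 17662 and 11809 CPM. They made up 15.8% and 45.3% of the kept cells, with a median mitochondrial share of 2.38% and 0.35%. The part of these differences in the ratios of hepatocytes was not tested. The clusters that held most of them differed, as 70.4% of those of the reference library and 35.7% of those of the pool lay in their largest clusters, led by Mup20 and by Gm30692. The largest clusters also differed between libraries for T cells, NK cells and classical monocytes. Within clusters, values were computed for the 6 members and not for the genes of the lists.

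Within clusters, Tsc22d3 had the same direction as in the types. In each of the 13 clusters with 50 or more cells in both libraries, within KCs, classical monocytes, T cells, NK cells and hepatocytes, it was at least 2-fold lower in the pool, with ratios from -2.78 to -1.05. Its fewest UMIs were 11 in the pool, in a KC cluster, and 14 in the reference library, in a hepatocyte cluster. No share of all genes was computed within clusters. As the members were picked on this contrast, nothing is read from counts of clusters. The T cells, short of 2-fold as a type, had ratios of -1.05 in the cluster led by B3galt2 and Il2ra (116 and 55.5 CPM) and -1.44 in the cluster led by Foxp3 and Nsg2 (431 and 159 CPM). The first cluster held 74.0% of the T cells of the reference library and the second 61.6% of those of the pool.
Ddit4 differed between these T cell clusters, at 127 and 31.5 CPM in the first (-1.99, interval -2.38 to -1.65) and 73.4 and 54.6 CPM in the second (-0.44, -0.75 to -0.10), whose intervals did not overlap. Nr3c1 had 296 and 287 CPM in the first (-0.05, -0.19 to 0.09) and 120 and 169 CPM in the second (0.49, 0.26 to 0.73). Klf9 was 2-fold lower in the first, with 61.4 and 14.2 CPM (-2.08), and not in the second, with 18.7 and 13.99 CPM and an interval that held 0 (-0.45, -1.06 to 0.27). Per1 had 28.8 and 24.4 CPM in the first (-0.22, -0.73 to 0.23) and 27.7 and 41.3 CPM in the second (0.55, 0.09 to 1.096), so that the higher Per1 of the T cells as a type was found in 1 of these clusters. Both NK cell clusters were under 100 UMIs for Per1, with ratios of 1.13 (0.33 to 2.17) and 0.36 (-0.56 to 1.62). Neither T cell cluster had the lower Nr3c1 ratio of the T cells as a type. Over the 13 clusters, Nr3c1 was never 2-fold lower, with ratios from -0.41 to 0.83, the highest from 3 UMIs in the reference library.
In hepatocytes, Tsc22d3 had ratios of -2.36, -2.58, -2.06 and -2.78 in the 4 clusters compared. Ddit4 was measured in the first of them (-2.24), Fkbp5 in the last (-0.07, -1.09 to 1.83) and Per1 in none. Klf9 had -0.24, -1.06, -0.055 and -0.35 in the same clusters, of which the second held 98 cells and 19 UMIs of Klf9 in the reference library. The 3 clusters of KCs had Klf9 ratios of -3.41, -2.95 and -1.56, the last with 137 and 45.2 CPM.

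To compare cells at equal depth, each cell was thinned to 1000 UMIs and cells with fewer were left out, among them 2521 of 3689 and 3772 of 8895 hepatocytes. The loss was uneven in neutrophils, with 1533 of 3145 cells left out in the reference library and 3 of 338 in the pool. No cell type is known to lack these genes, so that no share from such a type is set beside them, and RNA of other cells was estimated for levels and not for shares. At this depth, 58.8% of neutrophils of the reference library (exact interval 56.4 to 61.2%) and 17.6% (13.7 to 22.1%) of those of the pool had a UMI of Tsc22d3, beside 59.8% and 31.1% of all neutrophils at full depth. The shares were 51.4% and 27.0% in B cells, the highest of the pool, and 28.5% and 6.35% in KCs. In hepatocytes the shares were 14.9% (12.9 to 17.1%) and 3.44% (2.95 to 3.97%). The share of cells with Tsc22d3 was lower in the pool in 13 of 13 types, with intervals apart in 12. Shares were computed for the members only, so that no count over all genes stands beside this count or those below. As the members were picked on this contrast, nothing is read from them.
Shares of Ddit4 were lower in 12 of 13 types and apart in 8. They were 21.9% and 4.52% in cDC2s, 20.6% and 2.70% in patrolling monocytes, 10.7% and 0.875% in KCs, and 1.12% and 2.09% in neutrophils, the type with the opposite direction. Fkbp5 was lower in 12 types and apart in 9, and stood in 5.38% and 3.12% of T cells. Klf9 was lower in 11 types and apart in 4, and stood in 15.1% and 13.2% of hepatocytes with overlapping intervals. In MoMFs of the pool, 0 of 107 cells had a UMI of Ddit4, Fkbp5 or Klf9 left after thinning, which was not a limit on the cells with these genes: at full depth, 2 cells (1.87%), 11 cells (10.3%) and 9 cells (8.41%) had one, beside 12.2%, 35.6% and 15.6% in the reference library. Per1 was lower in 9 types and apart in 3.
The share of cells with Nr3c1 was lower in 9 types and higher in 4. Its intervals were apart in T cells, with 20.6% and 17.0%, and in hepatocytes, with 6.59% and 9.72%. With cells thinned to 500 UMIs, the intervals of Nr3c1 were apart in 0 types. Types lower with intervals apart then numbered 9 for Tsc22d3, 7 for Fkbp5, 5 for Ddit4 and 3 each for Klf9 and Per1. At full depth, the share of cells with Nr3c1 was higher in the pool in 13 of 13 types, where cells also had more UMIs.

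**Figure D5:**
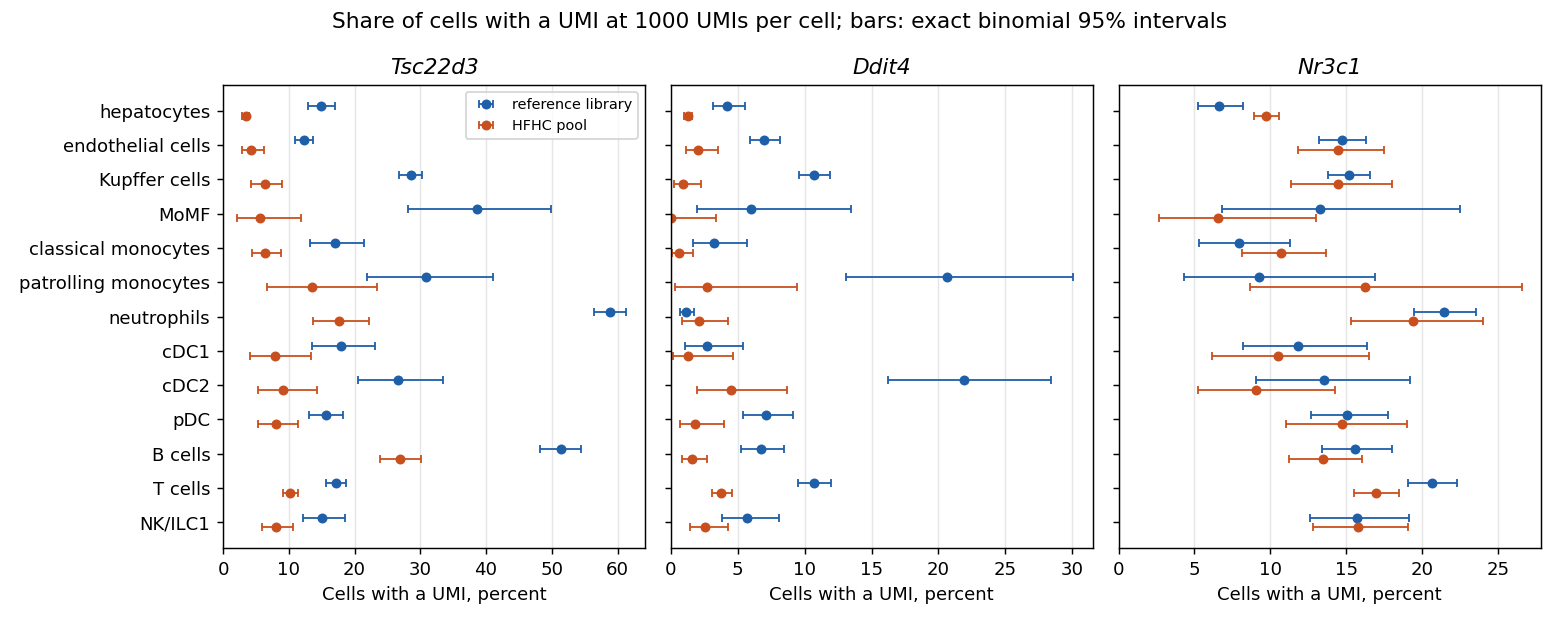
Share of cells with a UMI of Tsc22d3, Ddit4 or Nr3c1 (panels) after thinning to 1000 UMIs per cell, in percent, for 13 cell types (rows) in the reference library (blue) and the HFHC pool (orange), with exact binomial 95% intervals. Shares of Tsc22d3 in neutrophils stand at 58.8% and 17.6%, and those of Nr3c1 at 21.5% and 19.4%.

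Cells with UMIs of several response genes were likewise fewer in the pool at this depth. At least 2 of the 5 genes were found in 16.1% of KCs of the reference library and 0.438% of those of the pool, in 19.3% and 0% of MoMFs (0 of 107 cells after thinning), in 16.8% and 5.37% of neutrophils and in 14.6% and 1.69% of cDC2s. In hepatocytes the shares were 4.71% and 1.07%, and in NK cells 4.12% and 2.38%. None of the 5 genes was found in 46.4% and 87.3% of KCs and in 30.6% and 64.5% of neutrophils.

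Among 2598 genes measured in at least 11 of the 13 types and ranked by their median ratio from the lowest, Tsc22d3 stood at rank 8, Per1 at 90 and Nr3c1 at 1256. Ddit4, Klf9 and Fkbp5 were measured in too few types to be ranked. The response genes were picked for being lower on this same ratio, so that nothing is read from their ranks. The genes with the lowest medians beside the members were S100a9 (-4.18), S100a8 (-3.59), BC037034 (-2.09), Clec4f (-1.97), C1qb (-1.84), Cox17 (-1.69), C1qc (-1.57), Lyz2 (-1.41), Cebpb (-1.41) and Wfdc17 (-1.39). S100a8 and S100a9 are neutrophil genes and Clec4f, C1qb and C1qc genes of KCs or other macrophages, whose RNA in other cells is described above. Cebpb, a transcription factor of the acute phase and of gluconeogenesis, was at least 2-fold lower in 11 of 13 types, with ratios from -2.67 to -0.87.
Across the 26 levels of 13 types in 2 libraries, the genes most like Nr3c1 on log2(CPM + 1) were St3gal6 (Pearson r = 0.85), Ubb (0.85), Phf1 (0.83), Herpud2 (0.82) and Crebrf (0.81), of 11889 genes compared. The response genes had r from -0.11 (Klf9) to 0.34 (Fkbp5) with Nr3c1. These points share libraries and depth, and the values are descriptions.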

How the data were processed

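Single cells of mouse liver were captured with BD Rhapsody in 2 libraries. The deposited tables hold raw counts of UMIs per gene and cell, which the authors made, per the file headers, with the BD Rhapsody WTA Analysis Pipeline 1.10.1, the build GRCm38 and the annotation GENCODE M19, with correction of UMI errors. The reference library was assigned to its sample by elimination. Sample tags were not used here, so that no cell had a genotype.
Cells with 200 to 4000 genes and at most 25% mitochondrial UMIs were kept. Libraries were integrated with Seurat 5.3.0 in R 4.3.3 (SCTransform, sctransform 0.4.2, 4000 variable genes, reciprocal PCA, 30 components, 20 neighbours, resolution 0.8, seed 42), and monocytes and macrophages were clustered again at a resolution of 0.5. Of 28 and 16 clusters, 27 were named from markers, by score limits set after the clusters were seen. Clusters scoring for several lineages (10), with several haemoglobin genes among their leading genes (2) or low in score (2) were left out. Scrublet (scanpy 1.11.5) called 8.17% and 2.00% of cells doublets, which were kept.
UMIs were summed per type and library (python 3.11.15, numpy 2.4.6, scipy 1.17.1, pandas 2.3.3). Levels carry exact Poisson intervals, ratios exact conditional binomial intervals and shares exact Clopper-Pearson intervals, all at 95% and for counting error only, since amplified molecules of 1 library are not replicates. With 1 library per group no test was made, and no p-value or SE was computed. The procedure was tested on simulated data. Figures were drawn with matplotlib 3.10.9.
The members, the gene lists, the alternatives and the rule for named genes were chosen with earlier results of these data known. By that rule, pathway genes measured in at least 7 of 13 types could be given values. The text prints a part of these, leaves out 1 gene that is not reported here, and says where a gene outside the rule is named, together with the 10 genes of lowest median ratio and the 5 genes most correlated with Nr3c1. Alternatives were another scaling, other totals, lower UMI and mitochondrial limits, thinning, the mean over cells, doublet removal, no upper limit on genes, other clusterings and types, and 4 settings chosen after seeing the data.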

Additional observations from a re-analysis of the deposited data

Results flagged for a closer look

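Per1 had opposite directions in different cell types: its log2 ratio, pool over reference library, was -2.40 in endothelial cells and 0.88 in NK cells. Both intervals for counting error lay off 0. The difference between the types was not tested, as each group had 1 library.
Nr3c1 also had opposite directions, with a ratio of -0.37 in T cells and 0.39 in hepatocytes, and this difference was not tested either. Within the 2 T cell clusters compared the ratios of Nr3c1 were -0.05 and 0.49, and within the 4 hepatocyte clusters they were 0.013, 0.83, 0.058 and -0.016.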

How the results depend on the processing

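No paired analysis was possible because each group has 1 library, and for the same reason no library could be left out. Under the 14 alternatives, no ratio of a member turned its direction past 2-fold, and Nr3c1 was 2-fold lower or higher in 0 types, with ratios from -0.59 to 0.68. The response genes were at least 2-fold lower in 31 to 34 of 42 to 47 measured pairs, except with a minimum of 20 UMIs (46 of 62) and with cells thinned to 1000 UMIs (18 of 25). The share of all genes was not counted under the alternatives, and the members were picked on this contrast. Nothing is therefore read from the counts of members in this paragraph. Settings chosen after seeing the data were totals without dissociation genes (33 of 45), RNA of other cells taken off (32 of 45), shallow clusters counted as hepatocytes (33 of 45) and mixed clusters kept (34 of 47). Thinning leaves fewer UMIs and so fewer measured pairs, and types at least 2-fold lower then numbered 4 in place of 8 for Ddit4, 7 in place of 12 for Tsc22d3, 2 in place of 5 for Fkbp5 and 2 in place of 4 for Per1. A minimum of 20 UMIs admits more pairs, and gave 9 types in place of 4 for Klf9 and 9 in place of 5 for Fkbp5. Pairs at least 2-fold lower at that minimum were 1 in place of 0 for the receptor and its machinery, 63 in place of 28 for other glucocorticoid-induced genes, 1 in place of 0 for clock genes, 3 in place of 1 for the integrated stress response and hypoxia and 2 in place of 1 for tissue dissociation. For the lists, neither the measured pairs nor the share of all genes at that minimum was counted. These counts therefore cannot be read as stronger differences. Scaling by the median gene ratio gave 1 in place of 0 for the receptor and its machinery and 7 in place of 4 for family members. This scaling subtracts the median of all genes in a type, which was 0.14 in hepatocytes. Ratios just short of 2-fold, such as that of Hsd11b1 in hepatocytes (-0.99), then pass the limit. Clustering without the members and lists gave no cDC2 type and left a cluster led by Foxp3 out of the T cells, and 34 of 45 pairs were then lower. Shares of cells moved with the depth, by more than their intervals for 111 of 156 at 500 UMIs and 132 of 156 without thinning.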

Other observations

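A cluster left unnamed, because haemoglobin genes stood beside hepatocyte genes among its leading genes, held 3379 cells of the reference library and 160 of the HFHC pool. Its cells had a median of 392 and 1335 UMIs. In it Tsc22d3 had 188 and 31.3 CPM (log2 ratio -2.45, interval -3.66 to -1.69), Klf9 212 and 153 CPM (-0.45, -0.93 to -0.04) and Nr3c1 105 and 90.6 CPM (-0.18, -0.84 to 0.36). The pool held 10, 49 and 29 UMIs of these genes there. The cells named hepatocytes had ratios of -2.16, -0.09 and 0.39 for these genes, and for each gene the intervals of cluster and hepatocytes overlapped.
In NK cells, Fosb and Hspa1a of the dissociation list had log2 ratios of 4.37 and 6.16, the highest of these genes among the types where they were measured, beside Fkbp5 at -0.97 and Tsc22d3 at -1.11. Vegfa, of the hypoxia list, measured in 4 types and named after its value was seen, had 4.71 in the same cells. Dusp1 and Rgs2, both on the list of other glucocorticoid-induced genes, reached their highest ratios in NK cells (2.34) and T cells (2.18) and their lowest in hepatocytes (-1.20 and -1.003).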
